A study of Mus musculus with 14 samples.

Results

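The 10 immediate early genes Fos, Fosb, Junb, Egr1, Egr3, Npas4, Nr4a1, Arc, Ier2 and Dusp1 were followed through RNA of hippocampal parvalbumin (PV) neurons from mice exposed to chronic social defeat stress (CSDS). They were found by gene symbol in the table of raw counts, where they are 10 of 39017 genes, and each of the 10 passed the filter on low counts. The male mice, of C57BL/6 background, carried a Cre-dependent EGFP-L10a allele and PV-Cre, so that cells with a history of Cre expression tag their ribosomes with green fluorescent protein. In translating ribosome affinity purification (TRAP), tagged ribosomes are immunoprecipitated from homogenate and the RNA attached to them is sequenced. Defeated mice, aged 8 to 12 weeks at the start, met an unfamiliar CD1 aggressor for 5 min of attack on each of 10 days. Between attacks they stayed in the aggressor's cage, separated from it by a perforated divider. Non-defeated mice were housed in pairs across such a divider, without physical or sensory contact with CD1 mice. A social interaction test 24 h after separation split the defeated mice at an interaction ratio of 1 into resilient mice above it and susceptible mice below it, and tissue was taken afterwards, on a day that is not given per mouse in the sources used here. TRAP RNA came from 4 non-defeated, 4 resilient and 3 susceptible mice, with the 2 hippocampi of a mouse pooled as 1 sample, and input, the total RNA before TRAP, from 3 samples of non-defeated mice. Since the groups carry the number that each sample has in its name (non-defeated 1, 6, 9 and 11, resilient 3, 5, 7 and 8, susceptible 2, 4 and 10, input 12, 13 and 14), libraries are named by group and number.

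Immediate early genes are transcribed within minutes of a strong stimulus from transcription factors already present in the cell, and need no new protein synthesis. In neurons, calcium entry and the kinases it activates phosphorylate CREB and the partners of serum response factor, which drive these genes, and the RNAs are short-lived, so their levels are read as a trace of recent activity. Fos, FosB and JunB are subunits of the dimeric AP-1 transcription factor; Egr1 and Egr3 are zinc finger factors; Npas4 is a factor induced by calcium entry; Nr4a1 is an orphan nuclear receptor. Arc is a synaptic protein that promotes removal of AMPA receptors, Ier2 is a nuclear protein of less defined function, and Dusp1 is a phosphatase that inactivates MAP kinases and so limits the signal that induces it.

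Promoters of 6 of the 10 genes were found in the RefSeq promoter table (build GRCm38.p6, 250 bases before to 50 after the start): Fos, Fosb, Junb, Npas4, Nr4a1 and Dusp1. Searched on both strands, the core CREB element TGACG was present in 6 of these 6 windows, and in 20.8% of the 32851 windows of the same length in the table. The palindromic 8-base element TGACGTCA, which holds the core once on each strand, was found in 1 of 6, that of Dusp1, against 1.79% of all windows. The CArG box, which serum response factor binds, was in 0 of 6 windows and in 1.63% of all. Sites farther upstream than these windows reach, and those of genes without a window, were not searched. A match is a description of letters and not a measured binding site. Parts of 4 promoters are shown, because Fos and Dusp1 were higher and Junb and Nr4a1 lower in TRAP RNA than in input while these promoters share the core element. Each runs 5′ to 3′ on the strand of the gene from position -250 to -51 before the start, and capitals mark TGACG, its reverse complement CGTCA or the 8-base element.
Fos, chr12:85473640-85473839, plus strand: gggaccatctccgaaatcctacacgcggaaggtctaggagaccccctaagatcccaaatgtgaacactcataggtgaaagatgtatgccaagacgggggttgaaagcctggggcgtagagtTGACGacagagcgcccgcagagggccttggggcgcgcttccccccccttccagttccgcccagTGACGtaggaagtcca
Dusp1, chr17:26508523-26508722, minus strand: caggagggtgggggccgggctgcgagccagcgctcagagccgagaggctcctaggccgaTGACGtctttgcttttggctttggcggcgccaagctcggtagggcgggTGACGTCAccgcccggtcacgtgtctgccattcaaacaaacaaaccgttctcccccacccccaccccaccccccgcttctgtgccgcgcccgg
Junb, chr8:84978799-84978998, minus strand: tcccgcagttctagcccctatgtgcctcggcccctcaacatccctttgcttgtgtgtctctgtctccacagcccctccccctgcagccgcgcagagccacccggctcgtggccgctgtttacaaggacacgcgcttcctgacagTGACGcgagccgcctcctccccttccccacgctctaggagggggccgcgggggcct
Nr4a1, chr15:101266596-101266795, plus strand: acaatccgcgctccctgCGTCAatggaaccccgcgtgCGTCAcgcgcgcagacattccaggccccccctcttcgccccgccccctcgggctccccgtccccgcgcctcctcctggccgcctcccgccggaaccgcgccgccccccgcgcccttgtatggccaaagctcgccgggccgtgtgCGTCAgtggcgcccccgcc
The matches in Fos began at -129 and -66, and that in Junb at -106. Dusp1 held the core at -191 and the 8-base element at -143. In Nr4a1 the core began at -233, -213 and -69 within the stretch shown and at -40 after it. Outside these 4 genes, Fosb held it at -60 and Npas4 at -179 and -169.

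Library totals were 72098582 to 94726962 counts in non-defeated, 75325264 to 87316567 in resilient, 73348628 to 77566993 in susceptible and 64110214 to 80063224 in input libraries. Values are CPM after scaling of library totals by the trimmed mean of M-values (normalized CPM). Pvalb, which encodes parvalbumin, lay at 1208 to 1600 normalized CPM in the 11 TRAP libraries and 20.02 to 31.9 in input. Of markers of other cells, 12 of 12 excitatory neuron genes were lower in non-defeated TRAP than in input, with a median log2 fold change of -1.73, while 9 of 9 PV interneuron genes were higher, with a median of 2.86. Summed excitatory markers still stood at 745 to 1378 normalized CPM in TRAP libraries, against 3096 to 3721 in input. Also lower were 6 of 6 oligodendrocyte, 8 of 8 microglia, 5 of 6 astrocyte and 4 of 5 blood markers, while 3 of 8 endothelial markers were higher. Marker counts here are of genes at an adjusted p under 0.05 in edgeR's quasi-likelihood test. By the same threshold 27.4% of all genes tested were higher and 27.6% lower. The highest log2 fold change was -0.34 among astrocyte and -1.85 among blood markers, so those not counted were lower too. Of 8 markers of other interneurons, 5 were lower and 2 higher, with a median log2 fold change of -0.82. The higher ones were Npy (2.79 ± 0.33, SE) and Sst (1.61 ± 0.32), and among the lower ones was Vip (-2.29 ± 0.33). In RNA of this kind, fewer cells of a type and less RNA per cell cannot be told apart. Each library is 1 mouse where the labels tell, and the sample numbers of the groups do not pair them.

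The 10 genes spanned a wide range of levels in TRAP RNA. Per length (normalized RPKM, mean ± SD over the 11 TRAP libraries), Dusp1 stood at 22.2 ± 3.50, Egr1 at 17.1 ± 3.34, Junb at 16.2 ± 2.02, Arc at 15.2 ± 7.12 and Fos at 14.5 ± 2.57. Ier2 followed at 9.66 ± 1.32 and Nr4a1 at 5.58 ± 1.36. The means of any pair of Egr1, Junb, Arc and Fos differed by less than the larger of its SDs. These SDs are spreads between libraries, and the order of the genes within libraries was not tested. The lowest were Egr3 at 1.004 ± 0.271, Fosb at 0.320 ± 0.0867 and Npas4 at 0.147 ± 0.0952. In input the same scale gave a different order, with Egr1 at 58.0, Junb at 32.2, Arc at 31.4 and Nr4a1 at 16.3 at the top, Dusp1 at 8.21, Fos at 6.81, Egr3 at 6.49 and Ier2 at 5.26 below them, and Npas4 at 0.467 and Fosb at 0.345 last.

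**Figure D1:**
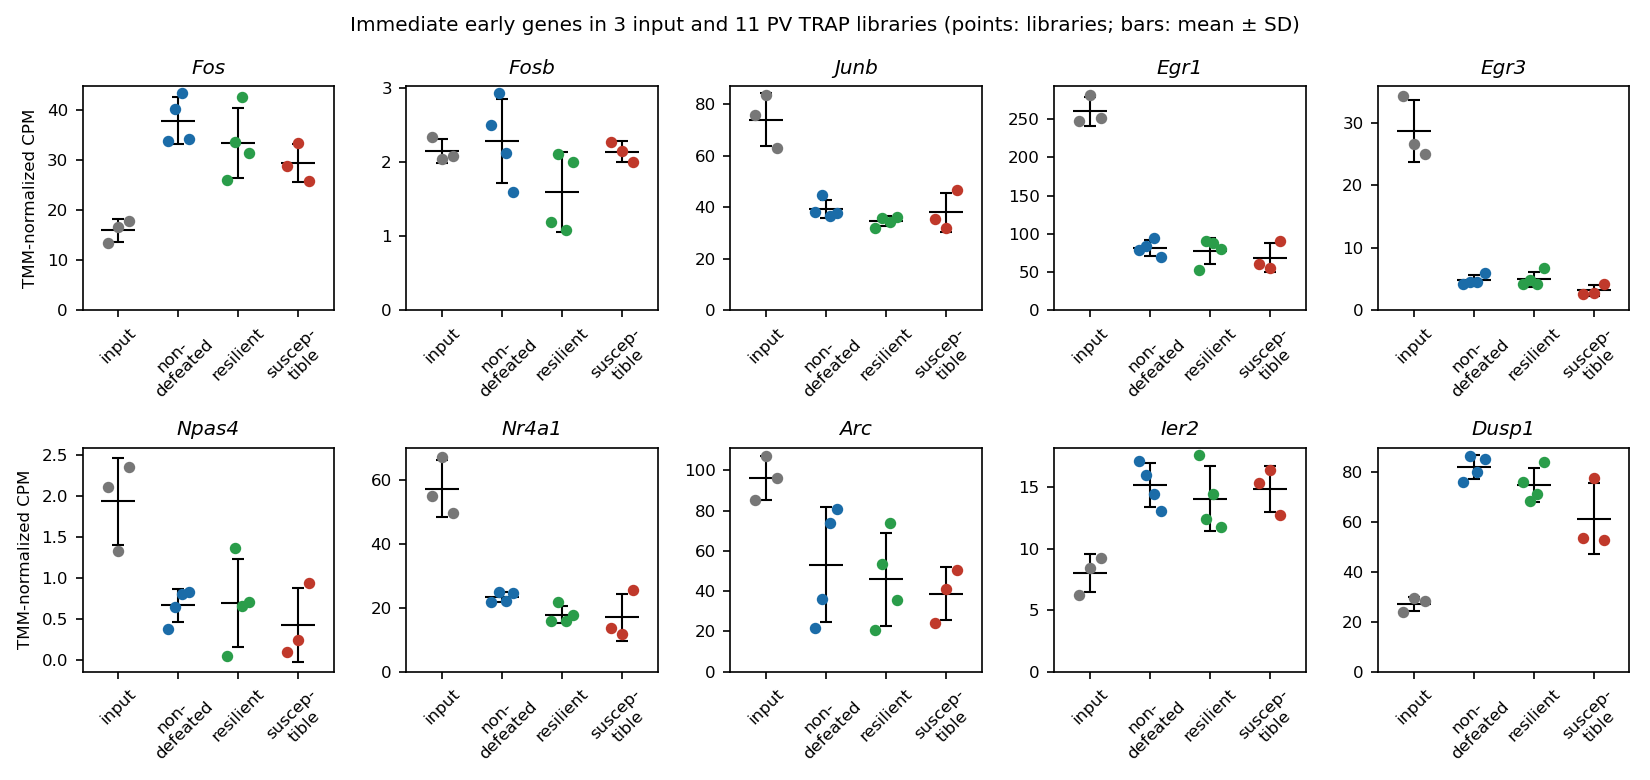
Normalized CPM of each of the 10 genes in each library, in panels with their own linear axis; points are libraries in the sequence of their sample numbers, and black bars are the group mean ± SD (input n = 3, non-defeated n = 4, resilient n = 4, susceptible n = 3). Fos, Ier2 and Dusp1 lie above input in all 11 TRAP libraries and Junb, Egr1, Egr3, Nr4a1 and Arc below it in all 11.

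Against input, the immediate early genes in PV TRAP RNA moved in opposite directions. TRAP RNA is attached to ribosomes, while input is total RNA. The part of this, and of RNA left from excitatory neurons, in the differences was not tested. In non-defeated TRAP libraries 3 genes were higher than in input (Fos, Ier2 and Dusp1) and 4 were lower (Junb, Egr1, Egr3 and Nr4a1), at an adjusted p under 0.05 in edgeR's quasi-likelihood test over 21298 genes. The remaining 3, Fosb, Arc and Npas4, did not pass. Groups did not overlap for 9 of the 10, all but Fosb, against 62.0% of all genes. Of the genes tested, 55.0% were called in this comparison, 27.4% as higher and 27.6% as lower, so the share of 7 in 10 is read against a background of that size. The median log2 fold change of the 10 genes was -0.88.

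Fos was at 33.9, 40.2, 43.4 and 34.3 normalized CPM in non-defeated libraries 1, 6, 9 and 11, and at 13.4, 16.7 and 17.9 in input libraries 12, 13 and 14. The groups did not overlap, with means of 38.0 ± 4.62 (SD, n = 4) and 16.01 ± 2.33 (SD, n = 3). The log2 fold change was 1.25 ± 0.16 (SE), with an adjusted p of 1.88e-05. Dusp1 was at 75.9, 86.1, 79.8 and 85.2 normalized CPM in the same TRAP libraries and at 23.98, 29.4 and 28.1 in input. It was the member with the largest positive difference, 3.01-fold higher in TRAP, at a log2 fold change of 1.59 ± 0.14 (SE) and an adjusted p of 3.15e-07. Ier2 lay between 13.1 and 17.2 normalized CPM in TRAP and between 6.27 and 9.28 in input. Its groups did not overlap either, and the log2 fold change was 0.92 ± 0.17 (SE), with an adjusted p of 0.000387.

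Both Egr factors were lower in PV TRAP RNA. Egr1 was at 78.2, 84.3, 94.7 and 70.1 normalized CPM in non-defeated libraries 1, 6, 9 and 11, against 247, 282 and 252 in input. Egr3 was at 4.14, 4.55, 4.53 and 5.99 against 34.3, 26.6 and 25.0. Each non-defeated library lay below each input library for both genes. The log2 fold change was -1.67 ± 0.19 (SE) for Egr1, with an adjusted p of 3.76e-06, and -2.57 ± 0.21 for Egr3, with an adjusted p of 2.12e-07. Egr3 was thus 5.96-fold lower in TRAP than in input. It lay next to the lowest of the 12 excitatory markers, Nrgn at -2.50 ± 0.17, with a gap smaller than either SE. Egr1 lay near the median of those markers.

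Junb, the AP-1 partner of Fos, was at 38.3, 44.6, 36.6 and 37.6 normalized CPM in non-defeated libraries 1, 6, 9 and 11 and at 75.7, 83.5 and 62.9 in input. Its log2 fold change was -0.91 ± 0.13 (SE), with an adjusted p of 3.28e-05, the opposite sign to Fos. Nr4a1 was at 21.7, 24.8, 22.1 and 24.7 against 54.8, 67.1 and 49.6, a log2 fold change of -1.29 ± 0.21 with an adjusted p of 0.000113. The non-defeated libraries lay within a narrow range for both genes, all below input. Of the Junb annotation, 173 exon bases are shared with Prdx2 on the opposite strand, and 11 of Dusp1 with Ergic1. The library kits do not keep the strand, so reads in those bases cannot be assigned to either gene.

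Arc and Npas4 were lower in each non-defeated library than in each input library and still missed the threshold. Arc was at 21.9, 36.1, 73.8 and 80.8 normalized CPM in non-defeated libraries 1, 6, 9 and 11, and at 85.1, 107 and 96.0 in input. The spread within TRAP was wide, with a log2 fold change of -0.85 ± 0.43 (SE), an adjusted p of 0.106 in edgeR and an exact permutation p of 0.114 (2-sided). Npas4 had 27, 59, 55 and 59 counts in the same TRAP libraries and 180, 94 and 211 in input, or 0.376, 0.640, 0.801 and 0.828 normalized CPM against 2.11, 1.33 and 2.36. Its log2 fold change was -1.55 ± 0.73, with an adjusted p of 0.0879 and an exact permutation p of 0.0286, the smallest that 4 against 3 libraries can give. Npas4 passed the threshold in 3 other settings, with edgeR on the 2 groups alone (adjusted p = 0.00262), with DESeq2 (adjusted p = 3.85e-05) and without resilient library 3 (adjusted p = 0.0250). Resilient library 3 had 3 counts of Npas4, the fewest of any library, and it entered the shared estimate of spread. Fosb, at 1.60 to 2.94 normalized CPM in non-defeated TRAP and 2.04 to 2.35 in input, overlapped between the groups, with a log2 fold change of 0.09 ± 0.26 and an adjusted p of 0.785. Counts per gene do not separate full-length FosB from the truncated isoform that accumulates with repeated stimulation.

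The directions extended to TRAP libraries of defeated mice, set against the same input, which came from non-defeated mice only. Over the 11 TRAP libraries, Fos, Ier2 and Dusp1 lay above each input library in 11 of 11 and Junb, Egr1, Egr3, Nr4a1 and Arc below it in 11 of 11, while Npas4 was below in 10 of 11 and Fosb above in 2 and below in 5. Across all genes tested, 23.7% lay above input in this way and 25.1% below. A ratio of counts within a library needs no scaling between libraries. Fos counts per Egr1 count were 0.434, 0.478, 0.458 and 0.489 in non-defeated libraries 1, 6, 9 and 11, and 0.0542, 0.0594 and 0.0711 in input. Over all 11 TRAP libraries it ran from 0.286 to 0.599. The 2 genes were picked for their opposite directions against input, so the ratio against input is given as a description, without a p-value.

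**Figure D2:**
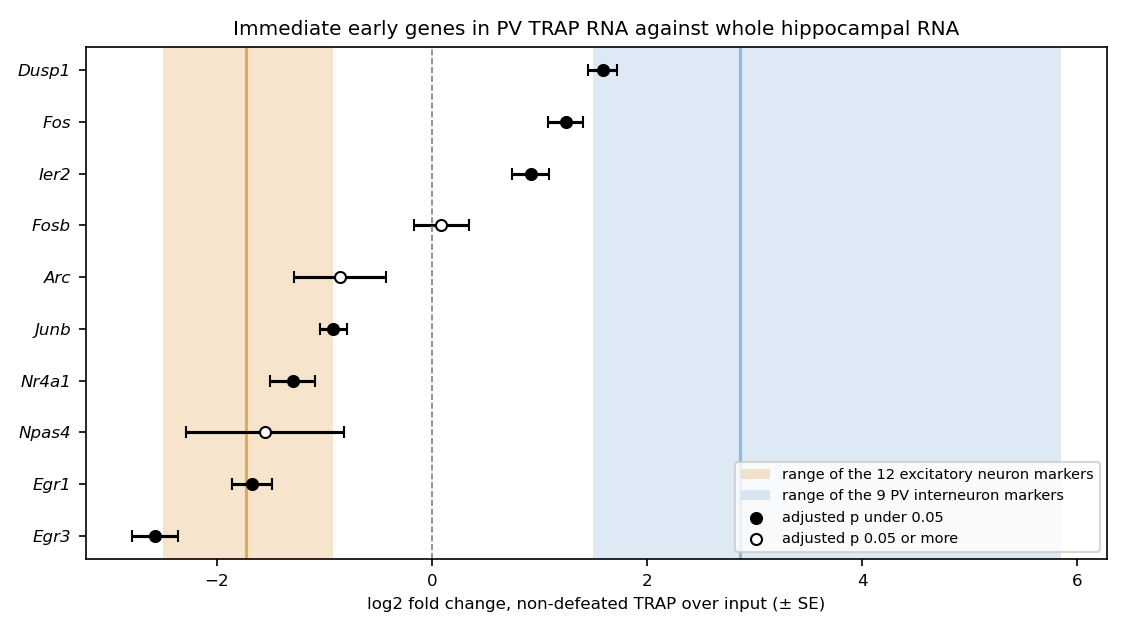
Log2 fold change of each gene between non-defeated TRAP (n = 4) and input (n = 3), with bars for the SE; filled points passed an adjusted p of 0.05, open points did not. Shaded bands span the 12 excitatory neuron markers (-2.50 to -0.91) and the 9 PV interneuron markers (1.4985 to 5.85), with a line at each median. Egr1, Nr4a1 and Npas4 fall in the excitatory band, Egr3 at its low edge, within its SE, and Dusp1 at the low edge of the PV band.

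Other genes of the same response were called in both directions in this comparison, at shares that differed between the lists. Of 48 further rapid response genes, 11 were higher in non-defeated TRAP than in input, 17 were lower and 20 did not pass, with a median log2 fold change of -0.25. The 28 called are 58.3% of the list, against the 55.0% of all genes. Arl4d, a small GTPase gene, was higher at 31.7 ± 6.62 against 8.57 ± 0.140 normalized CPM (SD, n = 4 and 3), and Rgs2, a regulator of G protein signaling, at 83.7 ± 8.71 against 44.4 ± 1.96. Klf10, a zinc finger factor, was lower at 13.4 ± 1.505 against 65.6 ± 19.6, and Dusp6, a phosphatase for ERK, at 34.8 ± 5.37 against 74.3 ± 5.98. Of 15 late activity genes, 7 were higher and 6 lower, together 86.7% of the list. Among them Bdnf, the neurotrophin gene, was lower at 8.12 ± 0.610 against 32.5 ± 1.80, and Nrn1, encoding neuritin, at 31.0 ± 3.78 against 137 ± 5.74. Pthlh, a peptide hormone gene, was higher at 20.2 ± 4.35 against 1.10 ± 0.171, as was Gpr3, a receptor that raises cAMP, at 13.6 ± 1.17 against 2.32 ± 0.246. Of 36 genes that carry signals to the nucleus, 7 were higher and 17 lower, together 66.7% of the list. Over all genes, 27.4% were called higher and 27.6% lower. Camk1, a calcium-dependent kinase, was higher at 138 ± 5.66 against 65.2 ± 7.54, and so was Map2k2, encoding MEK2, at 210 ± 9.42 against 115 ± 1.19. Elk1, a partner of serum response factor, was lower at 34.9 ± 4.51 against 86.0 ± 10.6, and Camkk2, the kinase upstream of Camk1, at 75.6 ± 5.51 against 149.8 ± 2.84.

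Between resilient and non-defeated mice, no immediate early gene passed the adjusted threshold. The count was 0 of 10 by edgeR's quasi-likelihood test, and also 0 by its likelihood ratio test and by DESeq2, where 0% of all genes passed the first of these. At an unadjusted p under 0.05 there was 1 gene, Fosb, against 4.38% of all genes. Fosb was at 2.51, 2.94, 2.13 and 1.60 normalized CPM in non-defeated libraries 1, 6, 9 and 11 and at 1.19, 2.12, 1.08 and 2.01 in resilient libraries 3, 5, 7 and 8. Resilient libraries 3 and 7 were the lowest and the groups overlapped. The log2 difference was -0.52 ± 0.24 (SE), with an unadjusted p of 0.0455 in edgeR and an exact permutation p of 0.143. Without non-defeated library 6 the Fosb difference was -0.38 (unadjusted p = 0.154 in edgeR).

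Junb and Nr4a1 did not overlap between these groups, each lower in the 4 resilient libraries, where 1.05% of all genes were so arranged. Resilient Junb values were 31.9, 35.9, 34.3 and 36.4 normalized CPM in libraries 3, 5, 7 and 8, against the 36.6 to 44.6 of non-defeated mice. The gap between the nearest libraries was small, and the log2 difference was -0.18 ± 0.12 (SE), with an unadjusted p of 0.152 in edgeR and an exact permutation p of 0.0286. Nr4a1 was at 15.98, 21.6, 15.97 and 17.7 in the same resilient libraries, against 21.7 to 24.8 in non-defeated ones. Its log2 difference was -0.39 ± 0.20, with an unadjusted p of 0.0668 in edgeR and an exact permutation p of 0.0286, the smallest that 4 against 4 libraries can give in a 2-sided test. Which gene lay under an unadjusted p of 0.05 depended on the method. With edgeR on the 2 groups alone and with DESeq2 it was Nr4a1, at unadjusted values of 0.00870 and 0.00292, and not Fosb, at 0.0942 and 0.0800, and neither gene passed adjustment. Group means of the other genes differed by log2 values from -0.21 (Arc) to 0.07 (Npas4), and the median over the 10 genes was -0.16.

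Susceptible mice had the lowest means of 7 of the 10 genes among the TRAP groups, and none of the 10 passed the adjusted threshold against non-defeated mice. The count was 0 by edgeR's quasi-likelihood test, 0 by its likelihood ratio test and 0 by DESeq2, with 0.0376% of all genes passing the first. At an unadjusted p under 0.05 there were 4 genes (Fos, Egr3, Nr4a1 and Dusp1), each lower in susceptible mice, against 13.3% of all genes in either direction. Log2 differences of the 10 genes ran from -0.63 to -0.03, with a median of -0.39.

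Dusp1 had the smallest p of these. It was at 53.4, 77.6 and 52.5 normalized CPM in susceptible libraries 2, 4 and 10, against 75.9 to 86.1 in non-defeated ones. Libraries 2 and 10 lay below the whole non-defeated group and library 4 within it. The log2 difference was -0.42 ± 0.13 (SE), with an adjusted p of 0.221 and an exact permutation p of 0.0571. Without library 4 the difference in Dusp1 was -0.63 (adjusted p = 0.0701 in edgeR). Without library 10 it was -0.32 (adjusted p = 0.256 in edgeR). Without library 2, the smallest adjusted p of the 10 genes in edgeR was 0.510. Fos was at 29.0, 33.4 and 25.9 in susceptible libraries 2, 4 and 10, against 33.9 to 43.4 in non-defeated ones. It was the gene of the 10 whose groups did not overlap, where 4.40% of all genes lay lower in this way. The log2 difference was -0.37 ± 0.16, with an adjusted p of 0.349 in edgeR and an exact permutation p of 0.0286.

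Egr3 was at 2.64, 2.69 and 4.21 normalized CPM in susceptible libraries 2, 4 and 10, against 4.14 to 5.99 in non-defeated ones. Library 10 fell inside the non-defeated range and the other 2 below it, with a log2 difference of -0.59 ± 0.22 (SE), an adjusted p of 0.278 and an exact permutation p of 0.0571. Nr4a1 was at 13.7, 11.8 and 25.4, where library 10 was the highest of all 11 TRAP libraries and libraries 2 and 4 the lowest. The log2 difference was -0.46 ± 0.21, with an adjusted p of 0.372 and an exact permutation p of 0.171. Without library 10 the difference in Nr4a1 was -0.87 (adjusted p = 0.0837 in edgeR). Without library 4 it was -0.25 (adjusted p = 0.635 in edgeR). The sign of the Nr4a1 difference changed with the sample numbers, at -0.86 within samples 1 to 6 and 0.12 within samples 7 to 11, which hold 1 susceptible library, while Egr3 was at -0.70 and -0.30, Fos at -0.25 and -0.57 and Dusp1 at -0.33 and -0.65. Npas4 had 7, 18 and 71 counts in libraries 2, 4 and 10, and its log2 difference of -0.63 ± 0.78 was smaller than its error. Leaving out 1 library moved the Npas4 difference between -1.95 and -0.16, and the former was reached without library 10 (adjusted p = 0.266 in edgeR, with an unadjusted value of 0.0432).

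Between susceptible and resilient mice the count was again 0 of 10 by edgeR's quasi-likelihood test, its likelihood ratio test and DESeq2, where 1.89% of all genes passed the first. Unadjusted, 2 genes lay under 0.05 (Egr3 and Dusp1), against 20.9% of all genes. None of the 10 was without overlap, against 15.1% of all genes. Egr3 in resilient libraries 3, 5, 7 and 8 was 4.15, 4.82, 4.24 and 6.70 normalized CPM. Susceptible libraries 2 and 4 lay below all of these and library 10 just inside their range, with a log2 difference of -0.64 ± 0.22 (SE). In edgeR its p was 0.00959 unadjusted and 0.116 adjusted. The adjusted p of Egr3 in edgeR was 0.0394 without susceptible library 10 (log2 difference -0.90). It was 0.0433 with the excitatory marker level as covariate (-0.75) and 0.0554 with the sample number as covariate (-0.64). On the 2 groups alone it was 0.244 with edgeR and 0.104 with DESeq2. Without susceptible library 4 it was 0.258 in edgeR (-0.54). Without susceptible library 2, the smallest adjusted p of the 10 genes in edgeR was 0.339. Dusp1 was at 76.0, 68.2, 70.9 and 83.7 in resilient libraries, and its log2 difference was -0.29 ± 0.13, with an adjusted p of 0.225. Without susceptible library 4 the difference in Dusp1 was -0.50 (adjusted p = 0.0592 in edgeR). Without susceptible library 10 it was -0.19 (adjusted p = 0.438 in edgeR). Within samples 1 to 6 and 7 to 11, Egr3 differed by -0.74 and -0.34 and Dusp1 by -0.16 and -0.55. These 3 comparisons share their libraries pairwise, so their values are not independent of each other.

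**Figure D3:**
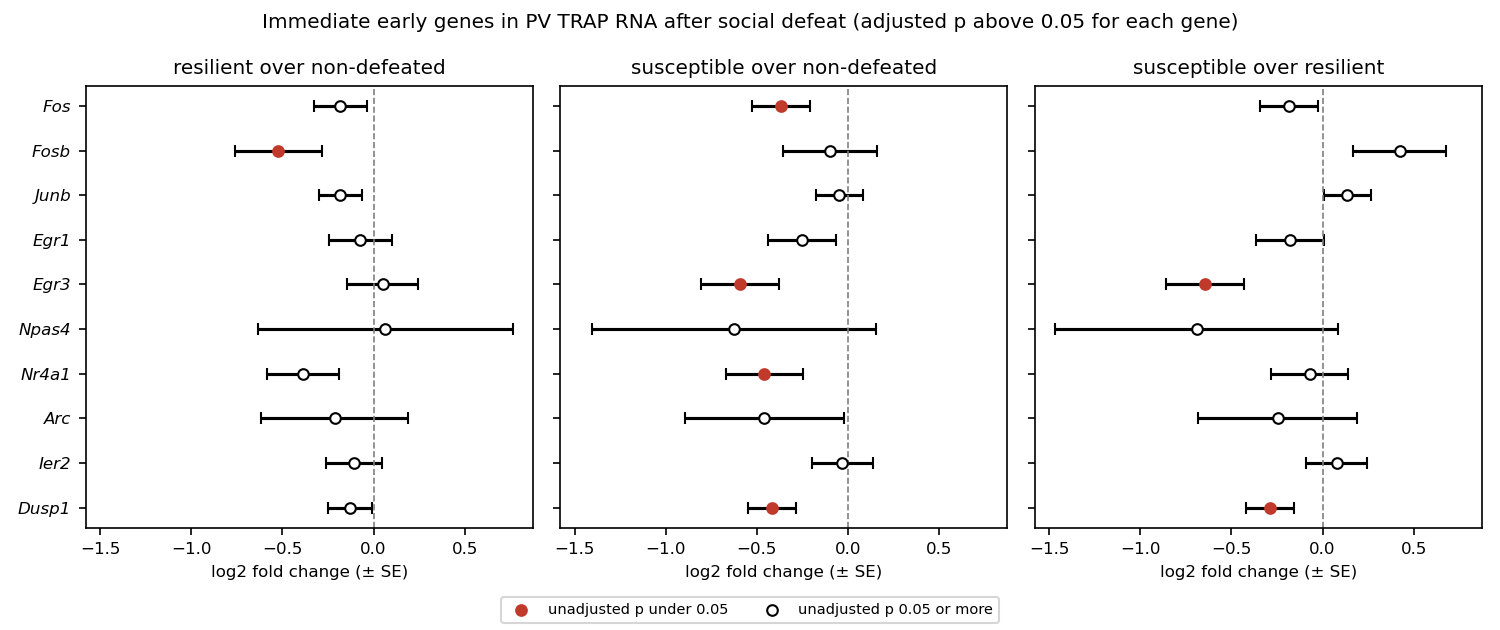
Log2 fold change of each gene (± SE) for resilient over non-defeated, susceptible over non-defeated and susceptible over resilient TRAP libraries, on a common axis; red points had an unadjusted p under 0.05 and white points did not. Red marks Fosb in the first panel, Fos, Egr3, Nr4a1 and Dusp1 in the second and Egr3 and Dusp1 in the third, all left of 0.

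Markers of other cells also differed between the stress groups. Summed blood markers (5 genes) lay at 890 to 1239 normalized CPM in susceptible libraries, 129 to 598 in resilient and 116 to 243 in non-defeated ones, with Hba-a1 at 306 ± 34.7 against 53.5 ± 14.4 in non-defeated mice. Endothelial markers (8 genes) summed to 29.3 to 46.9, 17.1 to 49.3 and 11.03 to 18.3 in the same sequence of groups. Adjusted calls in edgeR were 2 of 5 blood genes against non-defeated and 4 of 5 against resilient mice, all higher in susceptible ones. Over all genes, 0.0376% and 1.89% passed in these comparisons. Of the 8 endothelial genes 0 passed, and 3 and 1 had an unadjusted p under 0.05, against 13.3% and 20.9% of all genes. Endothelial genes were higher in resilient than in non-defeated mice by about as much, with a median log2 difference of 0.98, against 0.90 for susceptible mice. Between resilient and non-defeated mice, 3 of 8 had an unadjusted p under 0.05, against 4.38% of all genes. The 5 blood genes gave 0 calls there, with a median of 0.76. Other interneuron markers (8 genes) summed to 514 to 885 normalized CPM in susceptible, 444 to 800.4 in resilient and 436 to 641 in non-defeated libraries, with 0 adjusted calls and 3 of 8 unadjusted between susceptible and non-defeated mice. No blood marker was at 0 in any library, and the part of these lists in the values of the 10 genes was not tested. Excitatory markers summed to 849 to 1328 in susceptible, 745 to 1378 in resilient and 928 to 1141 normalized CPM in non-defeated libraries, ranges that overlap. The ratio of Fos to Egr1 counts did not separate the TRAP groups, at 0.465 ± 0.0241, 0.436 ± 0.0619 and 0.456 ± 0.158 (SD) in non-defeated, resilient and susceptible mice, with exact permutation p-values of 0.4, 0.8 and 1.

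Among the wider response genes, the adjusted calls of edgeR in the stress comparisons came from 1 list and 1 comparison. Of the 48 further rapid response genes, 0 passed in each of the 3 comparisons, with 4, 6 and 6 at an unadjusted p under 0.05 for resilient against non-defeated, susceptible against non-defeated and susceptible against resilient mice. The 15 late activity genes gave 0 adjusted calls and 1, 2 and 1 unadjusted ones. Over all genes, the unadjusted shares in these 3 comparisons were 4.38%, 13.3% and 20.9%. Among the 36 genes that carry signals to the nucleus, 4 passed between susceptible and resilient mice, and 0 in the other comparisons. The 4 are 11.1% of the list, against 1.89% of all genes. Ppp3cb, a catalytic subunit of calcineurin, was higher in susceptible mice at 176 ± 7.03 against 134 ± 7.03 normalized CPM, as was Camk2g, a subunit of CaMKII, at 66.2 ± 5.79 against 46.5 ± 1.81. Hdac5, a histone deacetylase that leaves the nucleus on calcium signals, was lower at 121 ± 7.29 against 166 ± 6.92, and Rps6ka1, the kinase RSK1, at 19.4 ± 3.43 against 30.1 ± 3.71.

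Between mice, some of these genes varied far more than others. Over the 11 TRAP libraries, the highest level over the lowest was 35.4 for Npas4, 3.89 for Arc, 2.72 for Fosb, 2.54 for Egr3 and 2.15 for Nr4a1, and 1.46 to 1.79 for the other 5. The 2 lowest Npas4 libraries held 3 and 7 counts, so that its spread includes large counting error. The level of Fos did not track the other 9 genes closely, with Pearson r of log2 CPM from -0.01 (Junb) to 0.55 (Arc, rho = 0.57) and no permutation p below 0.05 after Benjamini-Hochberg adjustment over 9 relations (lowest adjusted p = 0.303). Of all 45 pairs, a family added after the values had been seen, 0 passed by Pearson's r and 2 by Spearman's rho. The highest were Egr1 with Npas4 (r = 0.87, adjusted permutation p = 0.0526, and rho = 0.77, adjusted permutation p = 0.118) and Junb with Nr4a1 (r = 0.79, adjusted permutation p = 0.0812, and rho = 0.93, adjusted permutation p = 0.00675). Without the 2 libraries farthest from the median of the first gene, r was 0.80 and 0.79 for these pairs. Npas4 with Ier2 gave r = -0.73 (adjusted permutation p = 0.0946) and rho = -0.85 (adjusted permutation p = 0.0385), with r = -0.77 without the 2 farthest libraries.

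As a description, with the genes picked for their direction against input, Junb, Egr1, Egr3, Npas4, Nr4a1 and Arc were positively correlated in 15 of 15 pairs over the 11 TRAP libraries, with r from 0.14 to 0.87 and a median of 0.58. Ier2 was negatively correlated with each of those 6, with r from -0.73 to -0.30. Fos and Dusp1, the other genes higher than input, did not share this. With the same 6, r ran from -0.01 (Junb) to 0.55 (Arc) for Fos and from -0.21 (Junb) to 0.51 (Egr3) for Dusp1. Points of such a correlation share their library, its depth and its cell composition.

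**Figure D4:**
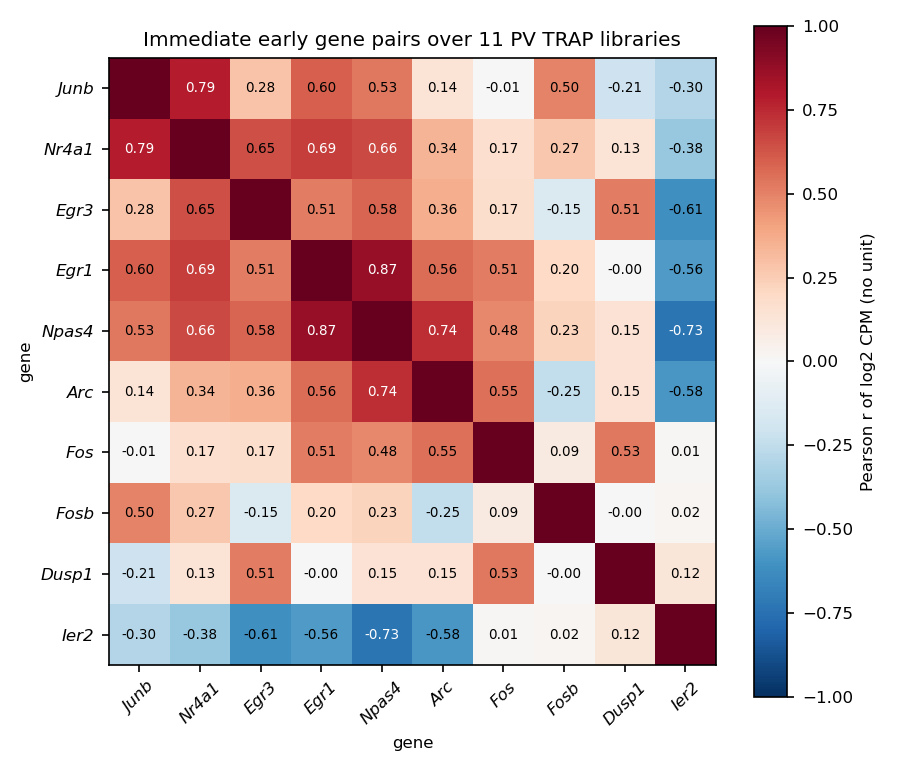
Pearson r of log2 CPM for each pair of the 10 genes over the 11 TRAP libraries, from blue (-1) through white (0) to red (1), with r printed in each cell. Junb, Nr4a1, Egr3, Egr1, Npas4 and Arc form the red block, and Ier2 with those 6 the blue cells.

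Arc varied with the number in the sample name. Its level was 21.9, 24.4, 20.8, 41.2, 53.3 and 36.1 normalized CPM in samples 1 to 6 and 73.8, 35.4, 73.8, 50.4 and 80.8 in samples 7 to 11. The lowest 3 were samples 1 to 3, each of a different group. What the number stands for, such as a mouse, a day or a preparation, is not given in the sources used here. Across the 11 TRAP libraries, r of log2 CPM with the number was 0.81 (permutation p = 0.00322, adjusted p = 0.0322 over 10 genes) and rho was 0.77 (permutation p = 0.00724, adjusted p = 0.0578). Over the 9 libraries without samples 1 and 11, r was 0.69, where the permutation p was 0.0404 before adjustment and 0.131 after it. In samples 1 to 6 alone, r was 0.77. Samples 7 to 11 are 5 libraries, fewer than a correlation is given for here, and their values did not rise steadily, with 73.8 in the first, 80.8 in the last and the lowest, 35.4, in sample 8. After subtraction of group means, r was 0.81 (permutation p = 0.00328, adjusted p = 0.0185). In edgeR, with the group in the model, Arc rose by 0.17 ± 0.04 (SE) log2 per number (adjusted p = 0.0274), and 9.81% of all genes were called for the number. Arc was the 1 gene of the 10 called in this fit, and 4 of 10 had an unadjusted p under 0.05, against 28.8% of all genes. Egr3 and Ier2 gave log2 coefficients of 0.07 ± 0.02 and -0.05 ± 0.01 per number, with adjusted p of 0.0671 and 0.0682. With the number as covariate, the Arc difference went from -0.46 to -0.07 between susceptible and non-defeated mice and from -0.21 to 0.09 between resilient and non-defeated mice. The relation was examined after the data had been seen.

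**Figure D5:**
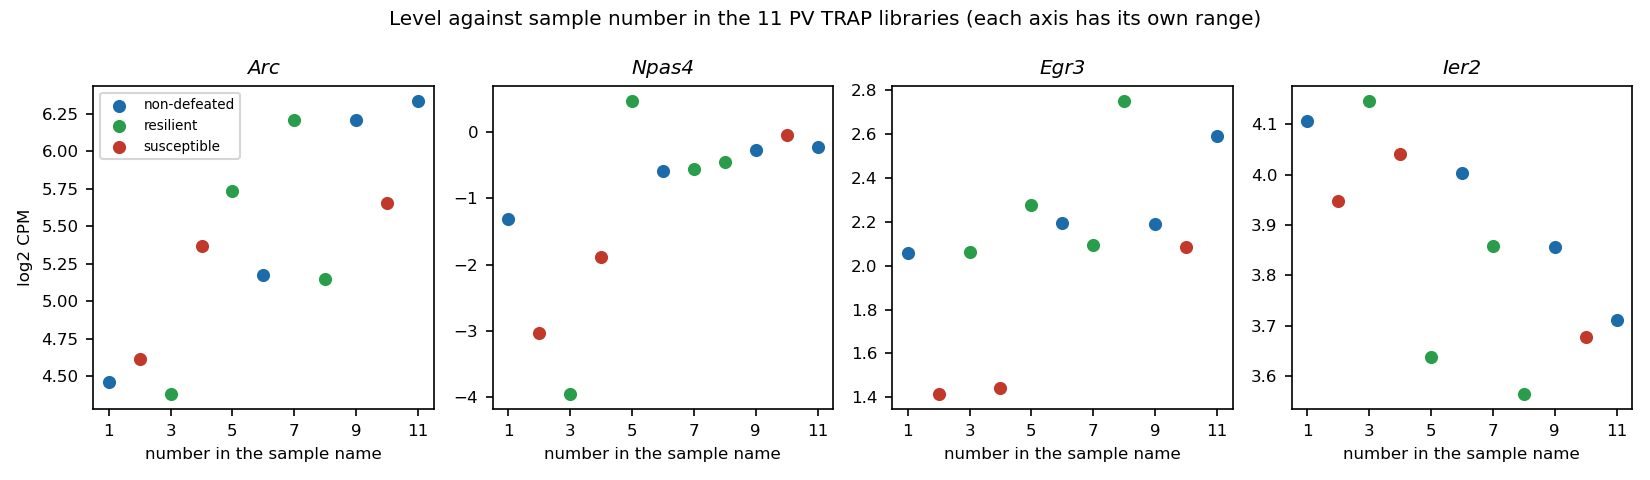
Log2 CPM of Arc, Npas4, Egr3 and Ier2 in the 11 TRAP libraries against the number in the sample name, colored by group; each panel has its own axis. Arc runs from 20.8 to 80.8 normalized CPM with r = 0.81, Npas4 has r = 0.67, Egr3 r = 0.61 and Ier2 r = -0.71.

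The level of excitatory neuron markers moved with several of the same genes. Its mean log2 CPM over the 12 genes was highest in susceptible library 10 (5.47) and lowest in resilient library 3 (4.57), and it followed the sample number with r = 0.68 (permutation p = 0.0191) and rho = 0.72 (permutation p = 0.0157). Npas4 rose with it (r = 0.82, adjusted permutation p = 0.0115, and rho = 0.92, adjusted permutation p = 0.0019), and Ier2 ran against it (r = -0.81, adjusted permutation p = 0.0115, and rho = -0.85, adjusted permutation p = 0.0074). For Fos and Dusp1 r was 0.11 and -0.28. Over the 9 libraries without resilient library 3 and susceptible library 10, r was 0.66 for Npas4 (permutation p = 0.0498) and -0.73 for Ier2 (permutation p = 0.0258), both with an adjusted p of 0.225. After subtraction of group means, r was 0.67 to 0.88 for Egr1, Egr3, Arc, Npas4 and Nr4a1 and -0.92 for Ier2.

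In edgeR, with the group in the model, 4 of the 10 genes were called for the marker level, against 9.99% of the genes outside the marker list. Npas4 rose by 4.19 ± 0.88 (SE) log2 per log2 unit of marker level (adjusted p = 0.0141), Nr4a1 by 0.86 ± 0.24 (adjusted p = 0.0437) and Egr1 by 0.82 ± 0.23 (adjusted p = 0.0421), while Ier2 fell by 0.67 ± 0.15 (adjusted p = 0.0212). Unadjusted, 6 of 10 lay under 0.05, against 28.1%. With sample number and marker level in 1 model, 0 of the 10 passed for either. For the number 1 gene, Arc, had an unadjusted p under 0.05 in edgeR (0.0226, adjusted p = 0.359), as had 2489 of all 20762 genes, of which 0% passed adjustment. For the marker level there were 4, the same Egr1, Npas4, Nr4a1 and Ier2 (lowest adjusted p = 0.185, for Npas4), against 12.1% unadjusted and 0.829% adjusted. These models were added after the data had been seen.

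Among 15982 other genes with a mean of at least 1 normalized CPM, those whose log2 CPM followed the mean z-score of the 10 genes most closely over the 11 TRAP libraries were Ints9 (r = 0.92), Nup153 (r = 0.92), Haus6 (r = 0.91), Msl2 (r = 0.91) and Ipcef1 (r = 0.90), followed by Ppat, Foxo6, 2610008E11Rik, Eif4a1 and a gene without a symbol in the tables used (r = 0.87 to 0.90). These named genes hold the highest of 15982 values of r over 11 libraries, and their relation to the 10 genes was not tested. The 10 genes followed their own mean with r from -0.38 (Ier2) to 0.84 (Npas4). By that mean, resilient library 3 and susceptible library 2 were the lowest, both at -0.86, and non-defeated library 6 the highest at 0.75.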

How the data were processed

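The authors deposited 1 table of raw counts per gene for the 14 libraries, made from 1 ng of RNA per library with SMART-Seq v4 and Nextera XT, kits that keep no strand. Reads were aligned to mm10 with STAR (2.5.3a in the submitters' processing notes) and counted with HTSeq, whose strand setting is not given in the sources used here. No column was left out. Columns were assigned to groups by sample title. Of 39017 gene identifiers, 37607 were named. The 10 genes and the other gene lists were chosen with earlier results of these data known.

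The test was edgeR 4.0.16 (R 4.3.3), where the 14 libraries entered 1 model of 4 groups, with TMM normalization, the default filter on low counts (21298 genes kept), the quasi-likelihood F-test and Benjamini-Hochberg adjustment over all genes kept. Fold changes are log2 with SE. Exact permutation tests were 2-sided, on mean log2 CPM (prior count 2), and correlation tests used 100000 permutations. RPKM used exon lengths from GENCODE mouse release M21. Libraries are taken as separate mice, and the p-values measure only the spread between them.

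Alternatives were the likelihood ratio test, DESeq2 1.42.0, RLE size factors, no filter, at least 10 counts in every library, fewer libraries in the fit, sample number or excitatory marker level as covariate, and leaving out each library. All 45 gene pairs, the relations and models with sample number and marker level, and the ratio of Fos to Egr1 were added after the data were seen. The fit was tested on simulated data. The text names the 10 genes in every comparison, the 2 smallest p-values per direction of each further list among adjusted calls (some of these values are given), and the 10 genes most like the mean of the members.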

Additional observations from a re-analysis of the deposited data

How the results depend on the processing

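No paired analysis was possible because the groups share no sample numbers. Against input, the 7 calls kept their direction and side of the threshold in every alternative run, with 7 to 8 calls when a library was left out. Npas4 was the added call, and Fosb ranged from -0.053 to 0.24 (log2). Between resilient and non-defeated mice the adjusted count was 0 throughout, and the unadjusted count was 0 with the 11 TRAP libraries, with the sample number and with the excitatory marker level as covariate, and 0 to 2 when a library was left out. Between susceptible and non-defeated mice the adjusted count was 0 throughout, and leaving out a library gave 1 to 5 unadjusted. Between susceptible and resilient mice the adjusted count was 1 (Egr3) with the marker covariate and 0 to 1 when a library was left out, with Egr3 called without susceptible library 10. The unadjusted count there was 1 with RLE, 2 groups only, DESeq2, the 11 TRAP libraries and either covariate, and 1 to 4 without a library. Of the 30 differences between stress groups, 11 changed sign when some library was left out and 19 did not. For resilient against non-defeated mice, log2 ranges were -0.15 to 0.075 (Egr1), -0.13 to 0.17 (Egr3), -0.54 to 0.060 (Arc) and -0.50 to 0.46 (Npas4), and Arc was 0.090 with the number and 0.026 with the marker covariate. For susceptible against non-defeated mice they were -0.24 to 0.045 (Fosb), -0.22 to 0.064 (Junb) and -0.11 to 0.068 (Ier2). For susceptible against resilient mice they were -0.040 to 0.25 (Junb), -0.49 to 0.083 (Arc), -0.48 to 0.13 (Nr4a1) and -0.0014 to 0.20 (Ier2). Correlations with Fos changed sign without the 2 farthest libraries for Fosb (-0.28) and Junb (0.26), and after subtraction of group means for Egr3 (-0.31), Nr4a1 (-0.33) and Ier2 (-0.064). Where fewer libraries were used, the fits had fewer samples, and the cause of other changes was not tested. Npas4 had the fewest counts of the 10 genes, 3 to 114 in TRAP libraries.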
